A study of Homo sapiens with 12 samples.

Results

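The response of MDA-MB-468 cells to knockdown of PKCδ was followed across all genes that could be read in this line, from 6 of the 12 arrays of the series. MDA-MB-468 is an established, basal-like breast cancer cell line that lacks the estrogen and progesterone receptors and HER2 amplification. The cells had received an siRNA against PRKCD, the gene of PKCδ (siPRKCD, n = 3), or a control siRNA (siControl, n = 3), and RNA was hybridized to Illumina Human HT-12 v4 BeadChips. The general transfection protocol of the study gives 40 nM siRNA for 72 h. The other 6 arrays, 3 siPRKCD and 3 siControl, come from BT-549, a basal-like line with mesenchymal features, and serve only to show where MDA-MB-468 differs. The labels name a single siPRKCD treatment, so effects of that siRNA's sequence and effects of losing PKCδ cannot be told apart. A gene was included when a probe was detected at p under 0.01 on at least 3 of the 6 MDA-MB-468 arrays, which held for 10342 of 20046 named genes on the array. Signals are quantile-normalized and given as log2 values, so that a difference of 1 is a 2-fold change. A gene is called higher or lower when the limma adjusted p (Benjamini-Hochberg over the 10342 genes) is under 0.05.

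PKCδ is a calcium-independent protein kinase C that is activated by diacylglycerol, and it phosphorylates proteins on serine and threonine. It takes part in growth factor signalling, in the control of apoptosis and in the differentiation of keratinocytes and other epithelial cells. Protein kinase C activity is also known to feed into the transcription factors AP-1 and NF-κB, which drive many genes of inflammation and of epithelial defence.

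The 6 arrays were comparable. Between 16562 and 17724 probes were detected on the siPRKCD arrays and between 16036 and 17604 on the siControl arrays, and log2 signals correlated at 0.986 to 0.996 within a group and at 0.958 to 0.975 between the groups. The mean signal before normalization was lowest on siPRKCD replicate 2 (315.7) and siControl replicate 3 (338.1), against up to 530 on the other arrays. All 17 epithelial and basal markers that could be read were detected on at least 3 of the 6 arrays, while 10 of 13 mesenchymal, 5 of 6 leukocyte and 3 of 4 endothelial markers were not detected on any of the 6 arrays. Only 3 mesenchymal, 1 leukocyte and 0 endothelial markers passed the filter, and none of those tested was called. The others could not be called. The endothelial KDR was detected on 2 siPRKCD arrays and 0 siControl arrays, and was not tested. The log2 of the summed signal of the leukocyte list was 9.88 to 10.01 with siPRKCD and 9.99 to 10.08 with siControl. As 5 of its 6 members were not detected, this sum includes background signal. The probe for 28S ribosomal RNA (RNA28SN5), a transcript without a poly(A) tail, read 12.30, 12.43 and 11.57 with siPRKCD and 9.56, 10.09 and 9.52 with siControl. That is a rise of 2.38 ± 0.34 (SE, adjusted p = 8.73e-05). It has a counterpart of 2.08 in BT-549, and its part in the other results was not tested.

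PRKCD itself was read at 7.29, 7.20 and 7.47 on the siPRKCD arrays and at 9.15, 9.13 and 8.82 on the siControl arrays. The groups did not overlap, and the siPRKCD values lay close to the lower end of the detected range. The difference was -1.72 ± 0.11 (SE, adjusted p = 4.28e-08), a 3.28-fold lower signal, and the probe was still detected on all 3 siPRKCD arrays. Among 11 measured genes of the protein kinase C, D and PKN kinases, 3 were called lower and 1 higher, against 15.2% and 13.8% of all genes. PKN2, a relative of the protein kinases C, fell by 0.61 (SE 0.12, adjusted p = 0.00101). PRKCA, the classical, calcium-dependent isoform, rose by 0.46 (SE 0.13, adjusted p = 0.0152), a call that was lost without siPRKCD replicate 1 (0.41, adjusted p = 0.0621) or without siControl replicate 2 (0.39, adjusted p = 0.07). The atypical isoform PRKCZ was lower by 0.30 on average, with values of 8.72, 8.53 and 8.58 with siPRKCD and 8.98, 8.81 and 8.94 with siControl, and this call too was lost without siPRKCD replicate 2 (-0.26, adjusted p = 0.0796) or siControl replicate 1 (-0.26, adjusted p = 0.0783).

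The knockdown was followed by a broad change in the transcriptome in which the falls were larger than the rises. With siPRKCD, 1430 genes were called higher (13.8% of those tested) and 1576 lower (15.2%), together 29.1%. The groups did not overlap for 4300 genes (41.6%), among them 95.5% of the genes called higher and 95.7% of those called lower. Among the genes called lower, 607 changed at least 1.5-fold, 153 at least 2-fold and 5 at least 4-fold. The corresponding numbers of genes called higher were 313, 48 and 3. The median size of a called fall was 0.51 and that of a called rise 0.44, while the median absolute difference over all genes was 0.19. The median difference over all genes was 0.004. Median centring in place of quantile normalization left 674 of the 10342 genes higher and 841 lower. Counts of group members given below with median centring belong beside these totals, not beside 13.8% and 15.2%.

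**Figure D1:**
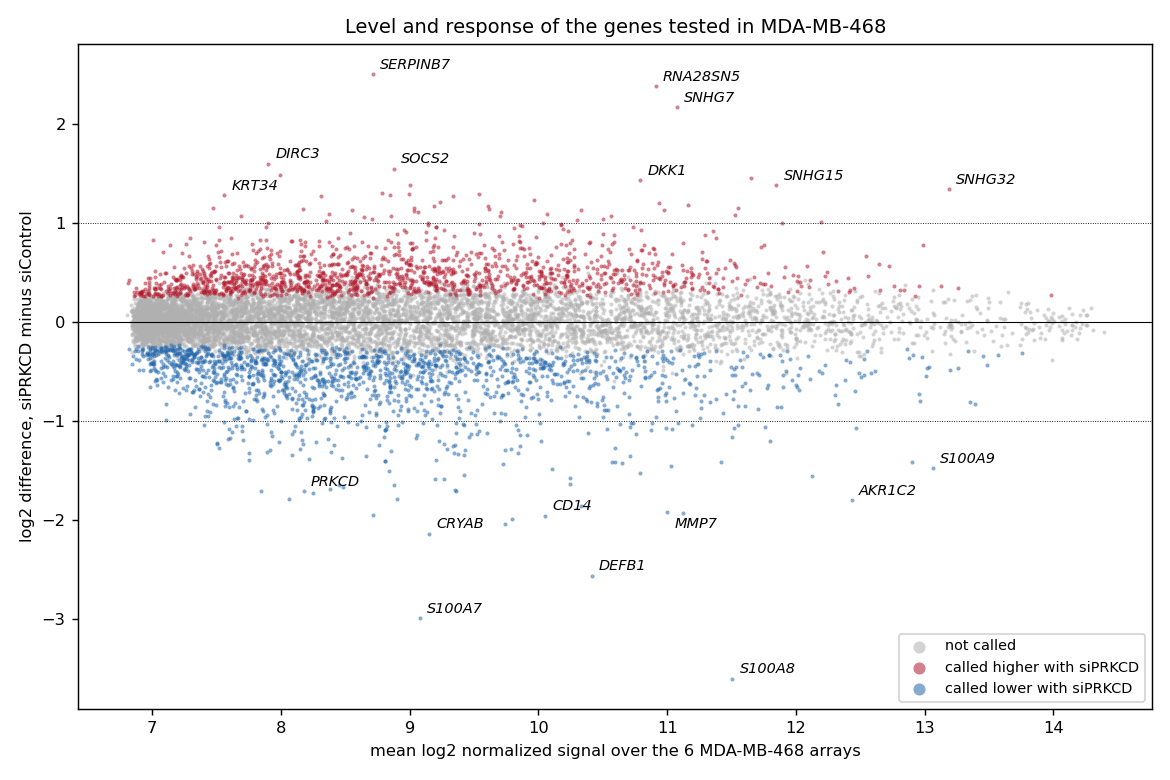
Mean log2 normalized signal over the 6 MDA-MB-468 arrays (x axis) against the log2 difference, siPRKCD minus siControl (y axis), with 1 point per gene, red for called higher, blue for called lower and grey for not called. Dotted lines mark 2-fold changes, which 48 genes passed upward and 153 downward among those called. The falls reach to -3.60 (S100A8) and the rises to 2.50 (SERPINB7).

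Responders were found at every level of expression above the dimmest genes. When the genes were divided into 5 equal bins by mean signal, 13.9% of the dimmest bin (log2 6.81 to 7.29) were called, against 29.3%, 36.5%, 36.7% and 28.9% in the bins above it. In the dimmest bin 759 of 2069 genes were detected on all 6 arrays, so the lower share there goes together with signals near background. Changes of at least 2-fold were absent from the dimmest bin. The 4 bins above it held 4, 13, 15 and 16 such rises, and 21, 45, 49 and 38 such falls, so falls outnumbered rises in each of them. The median signal of genes called higher was 9.04 with siPRKCD and 8.51 with siControl, and that of genes called lower was 8.33 with siPRKCD and 8.94 with siControl.

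**Figure D2:**
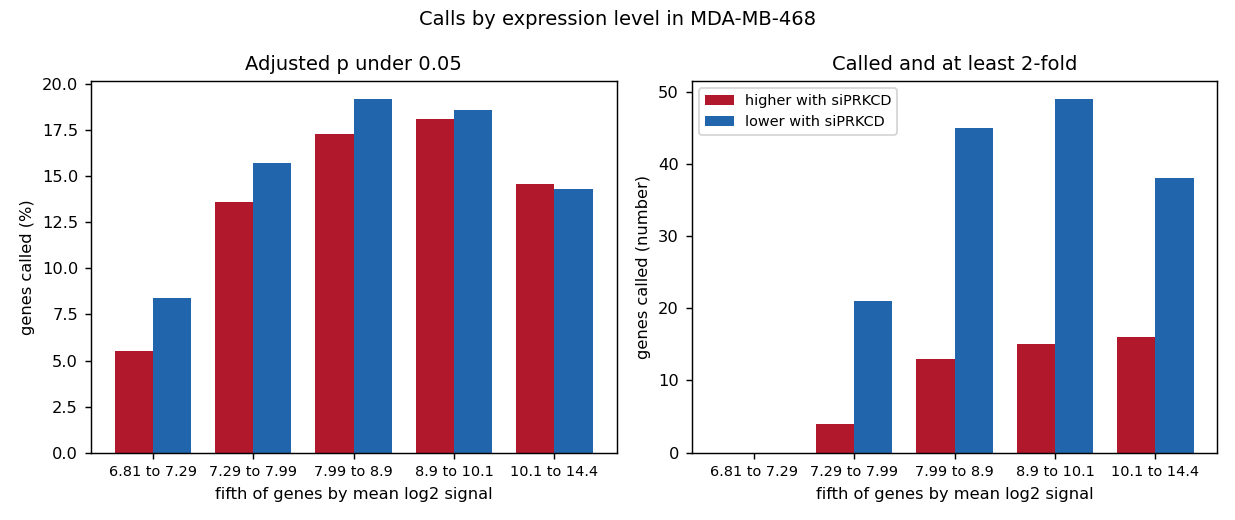
Genes called in 5 equal bins of mean log2 signal (x axis, range of each bin). The left panel gives the share of each bin called higher (red) or lower (blue) with siPRKCD in percent, and the right panel the number of genes called and changed at least 2-fold, from 0 in the dimmest bin to 49 falls in the bin from 8.9 to 10.1.

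The largest falls were in calcium-binding alarm proteins and in antimicrobial peptides. S100A8, which pairs with S100A9 to form calprotectin, read 9.73, 9.46 and 9.93 with siPRKCD and 13.26, 13.44 and 13.23 with siControl. This is a 12.2-fold lower signal (-3.60 ± 0.15 SE, adjusted p = 1.49e-10). S100A7, known as psoriasin, read 7.38, 7.05 and 8.32 with siPRKCD and 10.22, 10.56 and 10.94 with siControl, siPRKCD replicate 3 lying above the other two. It fell by 2.99 (SE 0.23, adjusted p = 1.64e-07). DEFB1, the constitutively expressed β-defensin of epithelia, read 9.13, 9.04 and 9.23 with siPRKCD and 11.76, 11.73 and 11.60 with siControl, and fell by 2.56 (SE 0.09, adjusted p = 2.74e-11). In all 3 genes every siPRKCD array lay below every siControl array, as it did in 95.7% of all genes called lower. Fewer cells with a transcript and less of it per cell cannot be told apart in these bulk samples.

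The S100 family as a whole leaned the same way. Of 14 members measured, 9 were called lower and none higher, with a median of -0.71, against 15.2% called lower and a median of 0.004 over all genes. S100A9 had 12.34, 12.33 and 12.29 with siPRKCD and 13.76, 13.82 and 13.84 with siControl (-1.48 ± 0.09 SE, adjusted p = 1.73e-08). S100P and S100A16 fell by 1.49 and 1.28. S100A7A, a close relative of S100A7, was detected on all 3 siControl arrays and on none of the siPRKCD arrays, and was at least 1.62-fold lower. The neighbouring S100 genes are similar in sequence, and cross-hybridization between S100A7 and S100A7A was not tested.

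Secreted products of mucosal and epithelial defence fell together. Of 11 genes of this group that were measured, 9 were called lower and none higher, against 15.2% and 13.8% of all genes. The median of the group was -1.28. PI3 (elafin), an inhibitor of neutrophil elastase, read 11.38, 11.35 and 11.31 with siPRKCD and 12.91, 13.08 and 12.74 with siControl (-1.56 ± 0.10 SE, adjusted p = 2.25e-08). SLPI, another inhibitor of leukocyte proteases, was more variable, at 10.01, 9.63 and 10.47 with siPRKCD and 11.19, 11.39 and 11.59 with siControl (-1.35 ± 0.26 SE, adjusted p = 0.000937). Complement factor B (CFB) fell by 1.67, the secretory pathway disulfide isomerase AGR2 by 1.58, the acute phase protein SAA1 by 1.28 and the iron-siderophore carrier LCN2 by 1.20. LCN2 and PI3 remained bright after the knockdown, with means of 11.20 and 11.35.

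Chemokines, the secreted proteins that attract leukocytes, changed in the same direction. Of 10 measured, 6 were called lower and none higher, against 15.2% and 13.8% of all genes (4 lower with median centring). CCL20, the ligand of CCR6, read 7.51, 7.14 and 8.22 with siPRKCD and 8.98, 9.36 and 9.48 with siControl, and fell by 1.65 (SE 0.20, adjusted p = 1.56e-05). CCL28, a chemokine of mucosal epithelia, read 7.41, 7.17 and 7.56 with siPRKCD and 8.24, 8.49 and 9.04 with siControl (-1.21 ± 0.16 SE). The neutrophil attractant CXCL1 read 7.44, 7.54 and 8.30 with siPRKCD and 8.45, 8.66 and 9.04 with siControl (-0.96 ± 0.22 SE, adjusted p = 0.00371), and the membrane-bound CX3CL1 fell by 0.93. In CCL20 and CXCL1, siPRKCD replicate 3 lay highest, as it did for S100A7. Smaller falls were measured for CXCL2 (-0.71, adjusted p = 0.0159) and the interferon-induced CXCL10 (-0.33, adjusted p = 0.0137). The CXCL2 call was lost without siPRKCD replicate 1 (-0.64, adjusted p = 0.0632) or siControl replicate 2 (-0.62, adjusted p = 0.0695), and the CXCL10 call without siPRKCD replicate 1 (-0.28, adjusted p = 0.0639). CXCL8 (interleukin-8) had 10.71, 10.59 and 11.20 with siPRKCD and 11.60, 11.62 and 11.04 with siControl, groups that overlapped, and was not called on its brightest probe (-0.59 ± 0.27 SE, adjusted p = 0.119), whereas it was called lower with same-numbered arrays paired in a replicate block (-0.59, limma adjusted p = 0.00907). Its second probe was called lower, by -0.94.

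The promoters of the defence and chemokine genes were examined because several are textbook NF-κB targets. RefSeq sequences from 250 bases before to 50 bases after the annotated start (GRCh38.p14) were at hand for 8417 of the 10342 genes and for 9 of the 15 chemokine and defence genes called lower. A match to the NF-κB consensus, searched on both strands, was found in 6 of these 9 and in 12.9% of all 8417 promoters. For comparison, 14.6% of the promoters of all genes called lower held a match, and 12.5% of those of genes called higher. Windows of 80 bases around the match nearest to the start are shown 5′ to 3′ on the strand of the gene, with the match in capitals, because they show how alike CXCL1 and CXCL2 are there.
CXCL1 promoter, chr4:73869280-73869359 (+ strand): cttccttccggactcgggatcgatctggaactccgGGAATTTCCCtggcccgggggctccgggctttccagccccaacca
CXCL2 promoter, chr4:74099228-74099307 (- strand): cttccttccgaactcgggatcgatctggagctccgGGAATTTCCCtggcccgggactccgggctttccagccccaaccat
CXCL10 promoter, chr4:76023575-76023654 (- strand): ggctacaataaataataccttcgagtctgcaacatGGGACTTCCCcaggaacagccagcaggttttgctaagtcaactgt
CCL20 promoter, chr2:227813728-227813807 (+ strand): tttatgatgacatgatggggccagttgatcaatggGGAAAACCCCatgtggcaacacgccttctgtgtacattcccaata
CFB promoter, chr6:31945948-31946027 (+ strand): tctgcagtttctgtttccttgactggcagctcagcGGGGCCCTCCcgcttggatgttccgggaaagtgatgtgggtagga
LCN2 promoter, chr9:128149243-128149322 (+ strand): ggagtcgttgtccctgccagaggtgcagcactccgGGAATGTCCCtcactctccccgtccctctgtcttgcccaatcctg
CXCL1 and CXCL2, neighbours on chromosome 4, carry the same letters in the match. These matches are a description of sequence, and binding was not measured. The genes were examined because several are known NF-κB targets, and uncalled members of these families were not counted apart. The share of matches therefore says nothing about the response to siPRKCD. For AP-1, the other factor named above, the 7 letters TGANTCA were found in 4 of 15 promoters at hand among the 20 largest falls, in none of 14 among the 20 largest rises and in 4.31% of all promoters, while the share among all genes called lower was 5.65%.

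Over all families of secreted proteins defined here, 184 genes were measured, of which 67 were called lower (36.4%) and 21 higher (11.4%). The median was -0.15, and among all genes 15.2% were lower and 13.8% higher. Cathepsins, the lysosomal proteases that can be secreted, had 6 of 11 members lower and none higher, although 3 were lower with median centring. CTSD fell to a mean of 7.65 ± 0.20 with siPRKCD, against 8.64 ± 0.16 with siControl (SD, n = 3 each, limma adjusted p = 5.6e-05). The matrix protease MMP7 (matrilysin), which releases growth factors and defensins from epithelia, read 9.70, 9.60 and 10.83 with siPRKCD and 11.64, 11.88 and 12.36 with siControl. It fell by 1.92 (SE 0.24, adjusted p = 2.56e-05), and again siPRKCD replicate 3 lay closest to the siControl arrays. The growth factor midkine (MDK) and the FGF carrier FGFBP1 fell by 1.06 and 1.07, and the death ligand TNFSF10 (TRAIL) by 1.17.

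Among Wnt ligands and secreted Wnt inhibitors, 5 of 9 were called lower and 1 higher, against 15.2% and 13.8% of all genes. The ligand WNT10A read 7.64, 7.69 and 7.32 with siPRKCD and 8.65, 8.76 and 8.96 with siControl (-1.24 ± 0.11 SE, adjusted p = 1.2e-06). The inhibitors SFRP1 and SOSTDC1 fell by 1.02 and 0.96. DKK1, an inhibitor that blocks the LRP5/6 co-receptors, went the other way with 11.37, 11.81 and 11.34 under siPRKCD and 10.12, 10.36 and 9.75 under siControl (1.43 ± 0.20 SE, adjusted p = 5.95e-05). Inhibitors of the pathway were thus found on both sides of 0.

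In the families counted here as secreted, rises were fewer but included the largest rise of all genes. SERPINB7 (megsin) was counted there by its name, as a member of the serpin family of protease inhibitors, and secretion of its protein was not examined. It read 9.71, 10.13 and 10.06 with siPRKCD and 7.35, 7.42 and 7.63 with siControl. This 5.65-fold rise (2.50 ± 0.11 SE, adjusted p = 6.67e-10) was seen on a second probe as well (2.21). The other called serpins, 3 of 7 measured, were lower (1 with median centring). BMP5, a ligand of the BMP family, rose by 0.95 (SE 0.11), the neurotrophin BDNF by 0.95 (SE 0.16) and the fibrillar collagen COL5A2 by 1.20 (SE 0.19). BDNF was detected on 2 of 3 siControl arrays, and its second probe was not called (0.18). Of 5 IGF binding proteins, 3 were called higher and none lower (1 higher with median centring), against 13.8% called higher among all genes.

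**Figure D3:**
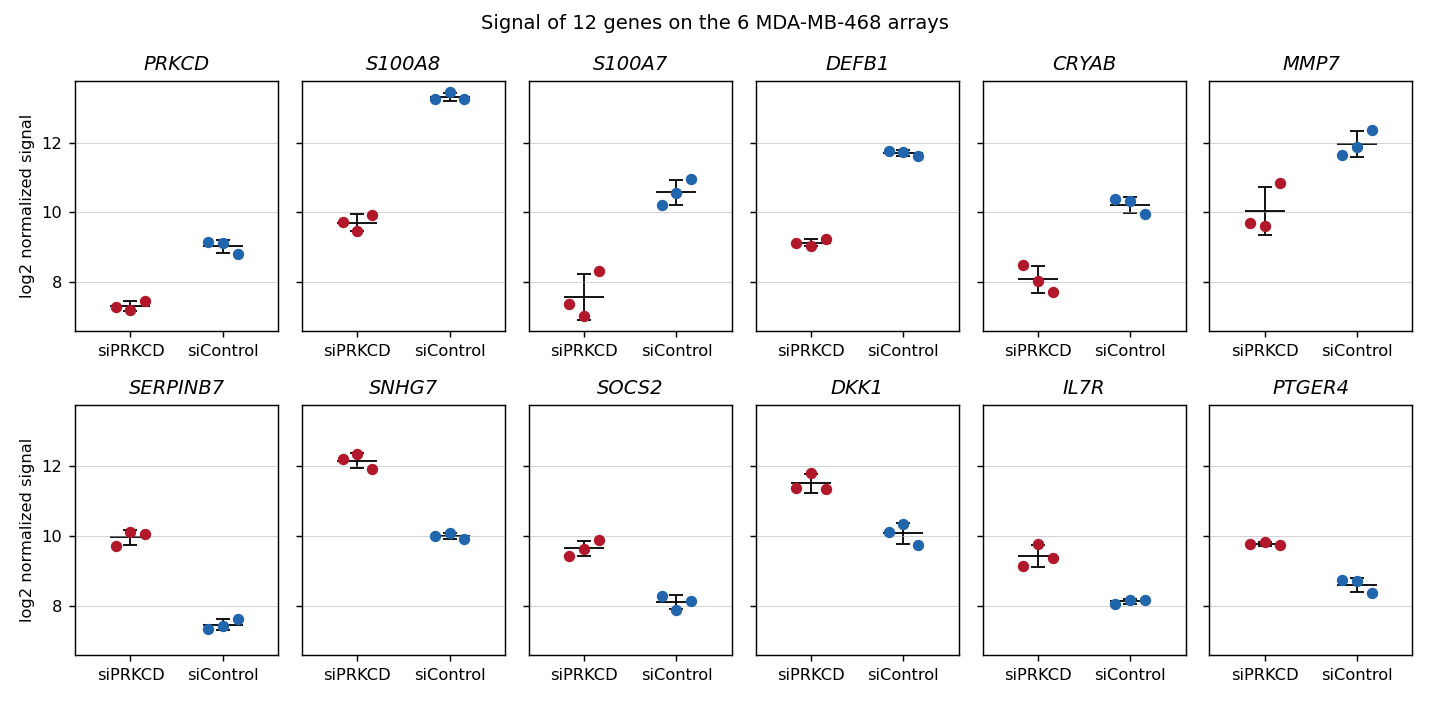
Log2 normalized signal (y axis) of 12 genes on each siPRKCD array (red, left) and siControl array (blue, right) of MDA-MB-468, with the group mean and SD (n = 3) in black. The groups do not overlap in any of the panels, but most of these genes were chosen among called genes with non-overlapping groups. The right-hand red point, siPRKCD replicate 3, lies highest among the siPRKCD arrays for S100A7 (8.32) and MMP7 (10.83).

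Surface proteins were also called lower more often than higher. Of 567 measured, 131 were called lower (23.1%) and 48 higher (8.47%), against 15.2% and 13.8% of all genes. With median centring 74 were lower and 24 higher. MUC1, the transmembrane mucin of glandular epithelia, read 9.57, 9.23 and 9.41 with siPRKCD and 11.38, 11.31 and 11.10 with siControl (-1.86 ± 0.16 SE, adjusted p = 4.58e-07), and its 2 further probes were called lower too. CD14, the co-receptor for lipopolysaccharide, read 9.39, 8.81 and 9.01 with siPRKCD and 11.22, 11.07 and 10.79 with siControl (-1.96 ± 0.16 SE, adjusted p = 2.74e-07). CD14 is best known from monocytes, as S100A8 and S100A9 are. Of the 6 leukocyte markers on the array, CD68 was detected on all 6 arrays and was not called (-0.19), and the other 5, PTPRC, CD53, LAPTM5 and ITGAM among them, were not detected on any array. With CD14, 4 of 5 toll-like receptor genes and their co-receptor were lower and none higher.

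Cytokine receptors had 9 of 27 members lower (33.3%) and 2 higher (7.41%), against 15.2% and 13.8% of all genes. IL13RA1, a receptor chain for interleukins 4 and 13, read 8.48, 8.41 and 8.62 with siPRKCD and 10.32, 10.15 and 10.13 with siControl (-1.70 ± 0.15 SE, adjusted p = 8.96e-07). The interleukin-1 receptor accessory protein IL1RAP fell by 0.91. IL7R, the α chain of the interleukin-7 receptor, rose instead, with 9.15, 9.78 and 9.38 under siPRKCD and 8.05, 8.17 and 8.18 under siControl (1.30 ± 0.15 SE, adjusted p = 1.17e-05). None of the 3 measured genes of the EGF receptor family, whose founding member is amplified in this line, was called.

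Genes of cell contacts and membrane organization were called lower more often than higher. Over tetraspanins, tight junction genes, cadherins, desmosomal genes, integrins and connexins, 26 of 79 were lower (32.9%) and 6 higher (7.59%), against 15.2% and 13.8% of all genes. Tetraspanins, which organize receptors and integrins in the membrane, had 8 of 18 lower and none higher, among them TSPAN3 (-1.35 ± 0.13 SE) and the metastasis suppressor CD82 (-1.01 ± 0.18 SE). Claudins and other tight junction genes had 9 of 18 lower and 2 higher (6 and 1 with median centring), while integrins had 2 of 14 lower and 1 higher. CLDN10 fell by 1.04, and the claudin-like CLDND1 by 1.32 with values of 9.23, 9.24 and 9.07 under siPRKCD and 10.60, 10.48 and 10.44 under siControl. CLDND1 belongs, with MSN, PRKAR1A, PLEKHA2 and SLC30A9, to the genes the study selected on these samples for their fall, so their falls here (-1.96, -1.53, -1.34 and -1.17 for the last 4) are not independent evidence. HLA class I gene HLA-B fell by 1.14, in a group in which 6 of 15 were lower and 2 higher (3 and 1 with median centring), against 15.2% and 13.8% of all genes.

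G protein-coupled receptors had 9 of 44 higher (20.5%) and 4 lower (9.09%), or 6 and 3 with median centring, against 13.8% higher and 15.2% lower among all genes. PTGER4, the EP4 receptor for prostaglandin E2, read 9.77, 9.83 and 9.73 with siPRKCD and 8.74, 8.71 and 8.37 with siControl (1.17 ± 0.10 SE, adjusted p = 8.03e-07). The oxytocin receptor OXTR rose by 1.27 (SE 0.15), and OLR1, a scavenger receptor for oxidized LDL that is not of this class, by 1.22 (SE 0.16). The nucleotide receptor P2RY2 and the GABA-B receptor subunit GABBR2 fell by 0.92 and 1.25. CD55, a brake on complement, rose by 0.64.

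**Figure D4:**
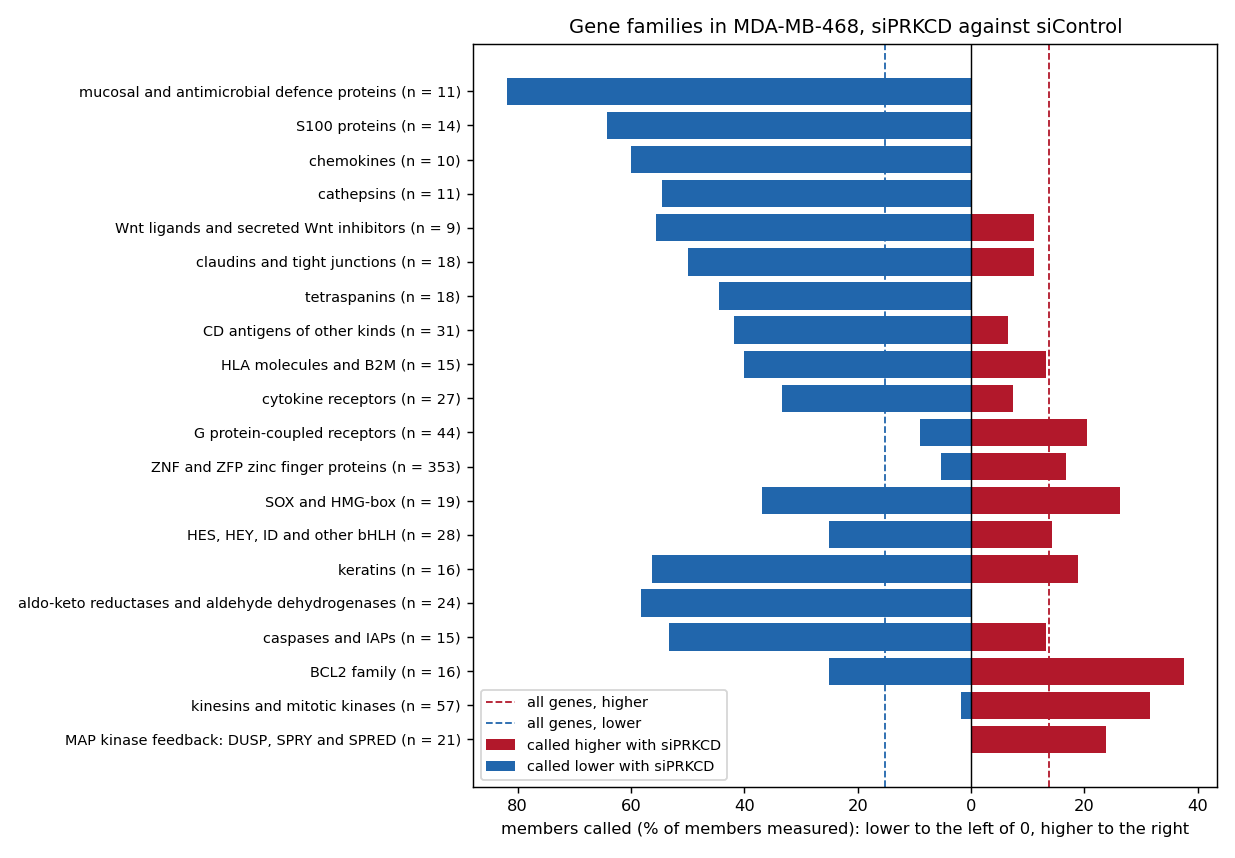
Members called lower (blue, left of 0) and higher (red, right of 0) with siPRKCD as a percentage of the members measured in 20 gene families of MDA-MB-468, with the number measured after each name. Dashed lines mark the shares among all genes, 15.2% lower and 13.8% higher. Bars for defence proteins, S100 proteins and chemokines lie on the lower side only.

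Transcription factors as a class had 98 of 631 measured genes called higher (15.5%) and 74 lower (11.7%), against 13.8% and 15.2% of all genes. Zinc finger proteins of the ZNF and ZFP type, which made up 353 of the 631, had 59 higher (16.7%) and 19 lower (5.38%), or 26 and 11 with median centring. Of the 278 other factors, 39 were higher (14%) and 55 lower (19.8%), or 21 and 32 with median centring. ZNF274, which directs heterochromatin to its target loci, read 10.84, 11.06 and 10.79 with siPRKCD and 9.90, 9.82 and 9.59 with siControl (1.13 ± 0.11 SE, adjusted p = 2.71e-06). NFYC, a subunit of the CCAAT-binding factor NF-Y, rose by 1.15 (SE 0.10), and SMAD6, an inhibitor of BMP signalling, by 1.06 (SE 0.16).

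All 4 ID genes were lower. The ID proteins pair with basic helix-loop-helix factors and keep them from DNA, and they are induced by BMP signals. ID1 read 7.01, 6.94 and 6.75 with siPRKCD and 7.85, 7.60 and 7.85 with siControl (-0.86 ± 0.13 SE), and was detected on 2 of 3 siPRKCD arrays. ID2 fell by 0.88 (SE 0.15), ID3 by 0.83 (SE 0.11) and ID4 by 1.18 (SE 0.16), each with adjusted p of at most 0.000503. Groups did not overlap for any of the 4, nor did they for 95.7% of all genes called lower. SMAD6, an inhibitor of BMP signalling and also a known target of it, rose. The part of BMP signals in these changes was not tested.

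Regulators of inflammatory and early response genes were also lower in part. CEBPD, a C/EBP factor of the acute phase response, read 8.77, 8.65 and 8.70 with siPRKCD and 10.03, 9.85 and 10.24 with siControl (-1.33 ± 0.14 SE, adjusted p = 4.54e-06), and CEBPB fell by 0.56 (SE 0.12). NFKBIA, the NF-κB inhibitor that NF-κB itself induces, fell by 0.80 (SE 0.12), but the NF-κB and IκB group as a whole had 2 of 14 lower and 2 higher. The immediate early gene EGR1 fell by 1.10 (SE 0.23). FOS read 7.45, 7.01 and 7.02 with siPRKCD and 8.56, 8.07 and 7.29 with siControl, overlapping groups, and its call (-0.81, adjusted p = 0.0151) was lost without siControl replicate 1 (-0.52, adjusted p = 0.0885), siControl replicate 2 (-0.76, adjusted p = 0.0529) or siPRKCD replicate 2 (-0.75, adjusted p = 0.0635). FOSL1, the AP-1 subunit Fra-1, rose by 0.67 (SE 0.13) and was not detected on all 6 arrays. AP-1 members were thus found in both directions. Of 24 AP-1 and ATF/CREB genes, 6 were lower and 2 higher, against 15.2% and 13.8% of all genes. With median centring 3 were lower and 1 higher. HES2, CLOCK, NFIB and SOX11 fell by 1.29, 1.10, 1.08 and 1.06, and ELF5, a regulator of luminal progenitors in the mammary gland, was detected only with siControl and was at least 1.54-fold lower.

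**Figure D5:**
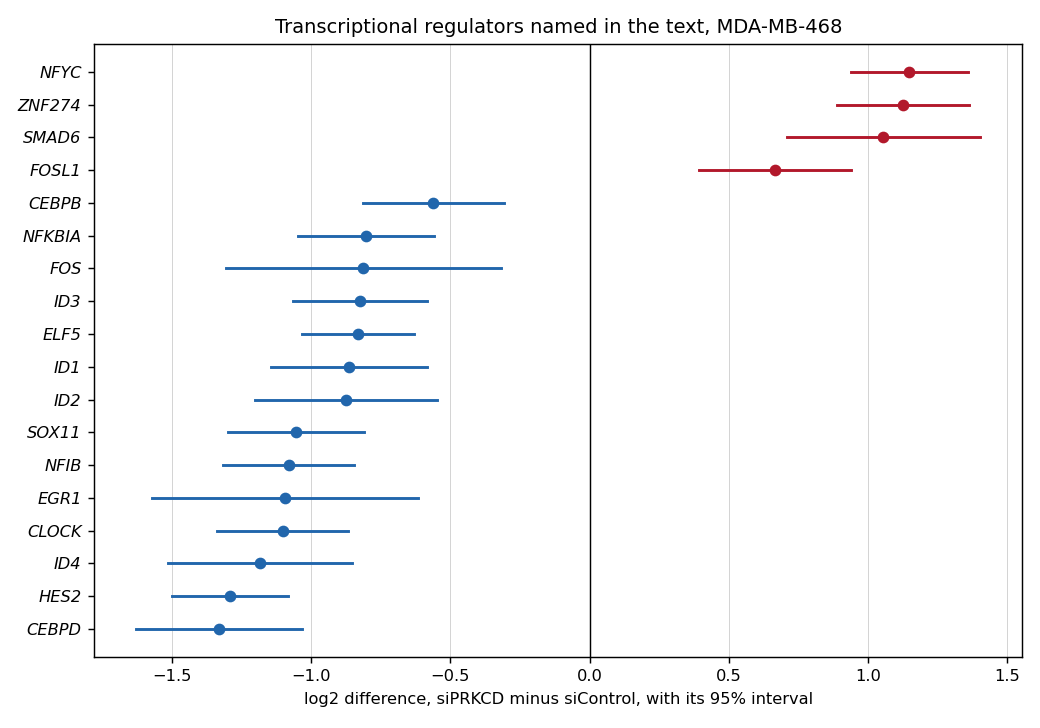
Log2 difference, siPRKCD minus siControl (x axis), of 18 transcriptional regulators in MDA-MB-468, with the 95% interval of the limma fit, blue for called lower and red for called higher. The 4 ID genes lie between -1.18 and -0.83.

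Within the cell, the small heat shock protein CRYAB (αB-crystallin), a chaperone found in basal-like tumours, was among the largest falls, with 8.50, 8.02 and 7.72 with siPRKCD and 10.37, 10.33 and 9.96 with siControl (-2.14 ± 0.16 SE, adjusted p = 1.34e-07). Keratins were lower in 9 of 16 and higher in 3, against 15.2% and 13.8% of all genes. The basal keratin KRT5 fell by 1.59 (SE 0.14), the mucosal KRT4 by 1.28 and the stress-induced KRT16 by 1.26. KRT34, a keratin of hair, and the junction-associated KRT80 rose by 1.28 and 0.96, although KRT34 was detected on 2 of 3 siControl arrays. CASP14, a caspase of cornifying keratinocytes, read 7.41, 7.06 and 7.04 with siPRKCD and 9.46, 9.04 and 8.39 with siControl (-1.79 ± 0.18 SE, adjusted p = 3.84e-06). Of the 17 epithelial and basal markers, KRT5 and KRT16 among them, 10 were called lower and none higher. The log2 of the summed signal of these 17 was 14.72 to 14.97 with siPRKCD and 15.06 to 15.14 with siControl.

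Aldo-keto reductases and aldehyde dehydrogenases reduce or oxidize carbonyl compounds such as retinal, steroids and lipid peroxidation products. They were lower in 14 of 24 and higher in none, against 15.2% and 13.8% of all genes. AKR1B10, a retinal reductase, read 7.52, 7.36 and 7.28 with siPRKCD and 8.99, 9.13 and 9.22 with siControl (-1.73 ± 0.10 SE, adjusted p = 8.49e-09). AKR1C2, AKR1C3 and AKR1C4 fell by 1.81, 1.71 and 1.93, but these neighbouring genes are nearly identical in sequence and the probes may read more than a single member. ALDH1A1, which makes retinoic acid, fell by 1.08 and was detected on 2 of 3 siPRKCD arrays.

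Genes of cell death moved in both directions, beside 15.2% lower and 13.8% higher among all genes. Caspases and inhibitors of apoptosis had 8 of 15 lower and 2 higher (5 and 1 with median centring), with BIRC5 (survivin) at 9.18, 9.30 and 9.40 under siPRKCD and 10.34, 10.49 and 10.34 under siControl (-1.09 ± 0.14 SE). In the BCL2 family 6 of 16 were higher and 4 lower (1 and 4 with median centring). Among the lower members were genes of opposite function, the protective BCL2L1 (-0.91) and MCL1 (-0.72) and the BH3-only PMAIP1 (NOXA, -1.05). Among the higher members, the pore-forming BAK1 rose by 0.58. The remaining called members of this family are not named here. The second probes of BIRC5 and BCL2L1 were not called.

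Kinesins, centromere proteins and mitotic kinases were higher in 18 of 57 and lower in 1, against 13.8% and 15.2% of all genes. With median centring 7 were higher, a setting that called 674 of all 10342 genes higher. CENPL, a centromere protein, read 9.14, 9.21 and 8.99 with siPRKCD and 8.26, 8.36 and 8.46 with siControl (0.76 ± 0.13 SE, adjusted p = 0.000568), and the mitotic kinase AURKA rose by 0.53 (SE 0.11). BIRC5, which acts in the same mitotic machinery, fell. Among feedback regulators of signalling, 5 of 21 DUSP, SPRY and SPRED genes were higher and none lower, with DUSP6, the ERK phosphatase, at 9.71, 9.66 and 9.49 under siPRKCD and 8.38, 8.45 and 8.69 under siControl (1.11 ± 0.17 SE, adjusted p = 0.000163). SOCS2, an inhibitor of growth hormone and other cytokine signals, read 9.44, 9.62 and 9.89 with siPRKCD and 8.28, 7.89 and 8.14 with siControl. It rose 2.91-fold (1.54 ± 0.16 SE, adjusted p = 4.99e-06), with a second probe at 0.84, while none of the other SOCS genes measured was called. The kinase NUAK1 and the tumour suppressor RASSF1 rose by 1.38 and 1.29.

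A rise shared by most members was seen in host genes of small nucleolar RNAs, transcripts whose introns hold snoRNAs and whose spliced RNA is mostly non-coding. This group was singled out after its values had been seen. Of 16 measured, 13 were called higher and none lower, against 13.8% and 15.2% of all genes. The median of the group was 0.78. SNHG7 read 12.20, 12.35 and 11.93 with siPRKCD and 9.99, 10.08 and 9.92 with siControl (2.16 ± 0.14 SE, adjusted p = 2.25e-08), and a second probe gave 2.11. SNHG32 read 13.93, 13.86 and 13.78 with siPRKCD and 12.67, 12.61 and 12.28 with siControl (1.33 ± 0.12 SE). SNHG6, SNHG15 and SNHG8 rose by 1.45, 1.38 and 1.18, and ZFAS1, SNHG5 and SNHG12 by 0.78, 0.77 and 0.73. Ribosomal protein genes did not follow. Of 73 cytosolic ones, 7 were higher and 4 lower with a median of 0.02, although the probes for RPL28 and RPL37 rose by 1.48 and 1.28. These probes read 7.25 and 8.21 with siControl, where the median of the group was 13.3.

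Host genes of snoRNAs are known to start, as ribosomal protein genes do, with a C and a run of pyrimidines. A C followed by at least 4 pyrimidines, beginning within 5 bases of the annotated start, was present in 7 of the 10 called host genes with a promoter at hand (9 of 13 measured) and in 23.1% of all 8417 promoters. RefSeq windows (GRCh38.p14) around the start of 6 of them are shown 5′ to 3′ with the run in capitals, because they let the length and place of the run be compared.
SNHG7 promoter, chr9:136728141-136728225 (- strand): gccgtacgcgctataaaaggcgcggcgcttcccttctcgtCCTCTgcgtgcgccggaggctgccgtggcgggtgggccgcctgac
SNHG32 promoter, chr6:31834876-31834961 (+ strand): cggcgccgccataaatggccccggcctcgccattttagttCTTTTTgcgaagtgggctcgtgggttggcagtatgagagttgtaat
SNHG8 promoter, chr4:118278717-118278802 (+ strand): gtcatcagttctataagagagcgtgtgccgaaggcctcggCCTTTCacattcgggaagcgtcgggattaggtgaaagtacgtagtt
ZFAS1 promoter, chr20:49278602-49278686 (+ strand): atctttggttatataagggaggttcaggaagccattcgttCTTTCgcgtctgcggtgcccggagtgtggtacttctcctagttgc
SNHG5 promoter, chr6:85678689-85678773 (- strand): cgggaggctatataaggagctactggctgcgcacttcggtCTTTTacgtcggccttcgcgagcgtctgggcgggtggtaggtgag
SNHG12 promoter, chr1:28581824-28581914 (- strand): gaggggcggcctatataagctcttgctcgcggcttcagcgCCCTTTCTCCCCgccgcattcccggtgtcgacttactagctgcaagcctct
Among all genes called higher, 24.4% had such a start, and among those called lower 21.2%, so the share seen in the host genes was not a feature of the called genes at large.

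Some genes crossed the limit of detection. In the MDA-MB-468 arrays 64 genes were detected on all 3 siPRKCD arrays and no siControl array, of which 34 were called, and 62 on all 3 siControl arrays and no siPRKCD array, of which 39 were called. Among all genes tested, 29.1% were called. The genes counted here passed the detection filter through a single group, and all were dim. They were picked by a difference in detection between the groups, so the share called and its direction are partly built in. AOX1, an aldehyde oxidase, was at least 1.42-fold higher with siPRKCD, ELFN2, a synaptic adhesion protein, at least 1.53-fold and the potassium channel regulator KCNIP4 at least 1.44-fold. Besides S100A7A and ELF5, TNF was detected only with siControl, at 6.72, 6.61 and 6.63 with siPRKCD and 7.07, 7.23 and 7.14 with siControl, at least 1.18-fold lower. DIRC3, a long non-coding RNA, was detected on 2 siControl arrays and rose by 1.59 (SE 0.12).

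Genes with several probes gave a check on the single-probe values. Of 2733 genes with more than 1 probe kept, both of the brightest probes were called in the same direction for 433, in opposite directions for 9, and only 1 of them for 676. Among the genes named here, 42 had more than 1 such probe. For 33 both were called the same way, for 8 only the brightest and for CXCL8 only the second. AKTIP, a component of the FTS-Hook complex, differed by -1.99 and -1.76 on its probes. TMEM107, a protein of the ciliary transition zone, differed by -2.05 on its brightest probe, which read 8.74, 8.57 and 8.85 with siPRKCD and 10.83, 10.65 and 10.81 with siControl, while its second, dimmer probe was not called (-0.16).

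The response was set against that of BT-549 for the 9106 genes detected in both lines, 88% of those tested. It differed between the lines for 748 genes (8.21%, interaction term of the same limma model), or 1325 with the replicate block and 239 with median centring. Of the 153 genes that fell at least 2-fold in MDA-MB-468, 46 did not reach detection on at least 3 of the 6 BT-549 arrays, S100A7, DEFB1, MMP7, CCL20 and KRT5, which were detected on none, and CRYAB, which was detected on 1, among them. Of the 107 that were, 73 were called lower in BT-549 too, 1 was called higher, and 56 differed between the lines. Of all 1250 genes called lower and detected in both lines, 641 were called lower in BT-549 and 209 differed. Of the 48 genes that rose at least 2-fold, 41 were detected in BT-549, with 21 called higher there, 2 called lower and 25 different between the lines. Of all 1311 genes called higher and detected in both lines, 517 were called higher in BT-549 and 199 differed. These sets were picked by their change in MDA-MB-468, which is part of the interaction term, so shares above 8.21% are partly built in. For S100A8 the difference between the lines was -3.92, with a change of 0.31 in BT-549, where its siControl mean was only 7.12. For PRKCD it was -0.84 (adjusted p = 0.00461), with a fall of 0.87 in BT-549. There PRKCD had a mean of 7.73 with siControl and 6.86 with siPRKCD, where it was detected on 1 of 3 arrays. Signal near background limits the fall that could be measured in BT-549, so the depth of knockdown cannot be compared between the lines. Of the 13 host genes called higher, 11 were called higher in BT-549. Of the 67 secreted genes called lower, 38 were detected in BT-549 (56.7%), of which 16 were called lower there and 11 differed between the lines. GBP2, an interferon-induced GTPase, fell by 1.79 in MDA-MB-468 and had -1.70 in BT-549, a difference of -0.09 between the lines (adjusted p = 0.9).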

How the data were processed

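The 6 MDA-MB-468 and 6 BT-549 arrays were treated as 4 groups of 3, as the labels name them. The authors deposited bead signal intensity per probe before normalization, a detection p-value per probe and array against negative control beads, and a second table of signal intensity that they had normalized across arrays (quantal normalization in the methods). The scanner software is not given in the sources used here. Here the unnormalized signals of all 12 arrays were brought to common quantiles, then log2-transformed. The result differed from the authors' table by at most 0.0083.

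Of 47323 probes, 30113 had 1 gene symbol in the platform annotation used here, 8 had several and 17202 none. Probes detected at p under 0.01 on at least 3 of the 6 MDA-MB-468 arrays were kept (17117, of which 13706 had 1 symbol), and where a gene had several kept probes the brightest on average over these 6 arrays stood for it (10342 genes). A model with a mean per group was fitted in R 4.3.3 with limma 3.58.1 (residual degrees of freedom 8, prior 8.12), with the contrasts siPRKCD minus siControl in each line and their difference. Adjusted p-values are Benjamini-Hochberg over all genes tested. "At least" folds take the higher of the probe's own signal and the lowest detected signal on each array where the probe was not detected. The fit was tested on simulated data.

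The study describes its array fold changes as means over 3 experiments. How the cultures of these experiments were separated is not given in the sources used here, and the p-values rest on the variation among the arrays. With 3 against 3, an exact permutation test of a single gene could not go below a two-sided p of 0.1. Same-numbered siPRKCD and siControl arrays of MDA-MB-468 deviated together from their group means (r = 0.379, 0.301 and 0.503). The numbers may thus pair the samples in this line. In BT-549 same-numbered arrays did not deviate together (0.276, -0.0094 and 0.0434). The main model has no term for pairing, so its calls and p-values are unpaired. Pairing was fitted only in the replicate block, 1 of the alternatives.

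Gene families were lists of symbols and name patterns. The members, families and lists were chosen with earlier results of these data known. The genes named are PRKCD, 5 genes that mark the response, the 20 largest rises and falls among called genes with non-overlapping groups, up to 4 called genes per family and direction by adjusted p, genes detected in a single group, and the study's candidates. The text names part of them, picked with values known, and the snoRNA host genes were added. Promoters are RefSeq sequences (GRCh38.p14). Alternatives were median centring, neqc background correction, MDA-MB-468 arrays alone, detection on all 6 arrays, no detection filter, the authors' table, the replicate block, a variance trend and leaving out each array.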

Additional observations from a re-analysis of the deposited data

Results flagged for a closer look

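The response of MDA-MB-468 cells differed from that of BT-549 cells for 748 of 9106 genes (interaction term of the limma model, adjusted p under 0.05), and 42 of the genes named above were among them. Most named genes were picked for their change in MDA-MB-468, so this number is partly set by the choice. The values that follow are differences of responses on the log2 scale, MDA-MB-468 minus BT-549, for those genes.

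For genes that fell in MDA-MB-468, S100A8 had -3.92 and S100A9 -1.62, CFB had -1.41, CXCL1 had -1.12 and CD14 had -1.87. S100A8 was dim in BT-549, with a siControl mean of 7.12, which limits the fall that could be measured there. MUC1 had -1.27, TSPAN3 -0.70, CD82 -1.88 and GABBR2 -1.61. CD82 was called in opposite directions in the lines, lower by 1.01 in MDA-MB-468 and higher by 0.87 in BT-549. The Wnt inhibitor SFRP1 had -0.86 and the protease CTSD -0.84. AKR1C3 and AKR1C4 had -1.64 and -1.85, but their siControl means in BT-549, 7.06 and 6.93, lay near background, so a fall could hardly be measured there. TMEM107 had -1.82, AKTIP -0.94 and MSN -0.55. Within the kinase family, PRKCD had -0.84 and PKN2 -0.59.

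Among regulators, CEBPD had -1.23, CEBPB -1.01, FOS -1.25, SOX11 -0.87, NFIB -0.67, CLOCK -0.66 and ID4 -0.74. CEBPB was called in opposite directions, lower by 0.56 in MDA-MB-468 and higher by 0.45 in BT-549. SMAD6 had the largest positive difference among the named genes detected in both lines, 2.03, with a rise of 1.06 in MDA-MB-468 and a fall of 0.98 in BT-549. NFYC had 0.74 and ZNF274 0.62.

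For other genes that rose in MDA-MB-468, the receptors IL7R, OXTR and PTGER4 had 1.68, 1.55 and 1.33. COL5A2 had 1.56, SOCS2 1.39, DKK1 1.19, NUAK1 1.13, RASSF1 0.92, RPL28 0.93, BDNF 0.82 and PRKCA 0.84, and PRKCA too was called in opposite directions, with -0.38 in BT-549. Of the snoRNA host genes, SNHG7 had 1.32, SNHG12 0.66 and SNHG6 0.58. The measured fall of PRKCD was smaller in BT-549 (-0.87) than in MDA-MB-468 (-1.72), but in BT-549 it ended near background. The part of the depth of knockdown in these differences was not tested.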

How the results depend on the processing

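In all 14 alternatives no gene called higher or lower was called in the opposite direction. Median centring left 674 genes higher and 841 lower, all of them among the 1430 and 1576, and 239 genes different between the lines. With no detection filter in MDA-MB-468, 20046 genes entered the fit. Among those of them detected on at least 3 BT-549 arrays, 1181 differed between the lines. With the replicate block, which fits the pairing of same-numbered arrays, 1827 genes were higher, 1906 lower and 1325 different between the lines. Its only change to a named gene was that CXCL8 was called lower (-0.59, adjusted p = 0.00907), as it was in a fit of the MDA-MB-468 arrays alone (-0.57, adjusted p = 0.0341). The other settings, apart from leaving out arrays, gave 1253 to 1431 genes higher and 1414 to 1576 lower. Leaving out 1 array of MDA-MB-468 gave 999 to 1454 higher, 1204 to 1526 lower and 505 to 728 different between the lines, the lowest counts of calls being those without siPRKCD replicate 2. PRKCD ranged from -1.83 to -1.66 there. Of 116 called genes named here, 111 kept their call in each alternative that tested them (16 were not tested when detection on all 6 arrays was required), the exceptions being PRKCA, PRKCZ, CXCL2, CXCL10 and FOS, all of which lost it with median centring. After neqc, which subtracts an estimated background, 26 of the 116 had a difference over 1.5 times as large, for instance S100A7A (-2.40), CASP14 (-2.80), KRT34 (2.48) and DIRC3 (2.68), and none was smaller by as much. Signal near background limits what can be called among the dimmest genes.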

Other observations

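In further groups of MDA-MB-468 genes, calls stand beside 15.2% lower and 13.8% higher over all genes. Counts under median centring follow in brackets, and that setting called 841 of all 10342 genes lower and 674 higher. Among 6 genes of the pentose phosphate pathway, which supplies NADPH, 3 were lower and none higher (2 and none). Among 40 genes of the glutathione and thioredoxin systems 12 were lower and 4 higher (7 and 1). Of 44 translation initiation factors 11 were higher and 4 lower (4 and 2). Among 23 histone genes 5 were lower and none higher (3 and none), and among 36 regulators of actin, which include ERM proteins, myosins and tropomyosins, 8 were lower and none higher (3 and none). Solute carriers, the largest group of surface proteins, had 38 of 197 lower and 13 higher (19 and 4). Glycolysis genes, with 3 of 21 higher (14.3%), and replication factors, with 5 of 39 higher (12.8%), lay near the share of all genes on that side, and neither group had a gene called lower.

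For 9 genes the brightest probes were called in opposite directions, namely ACTR3B, CGGBP1, GRTP1, LARP1B, NET1, ODF2L, SSR2, TMEM185A and UBQLN1. Probes of a gene can read different transcripts, and which transcripts these probes read was not examined.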
